A study of Arabidopsis thaliana with 33 samples.

Results

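The Argonaute family of Arabidopsis comprises 10 genes, AGO1 to AGO10, and these were taken by their gene identifiers from a deposited table of 33557 genes. All 10 were found. Argonautes are the proteins that hold a small RNA and use it to find a matching transcript or locus, and which small RNA enters which Argonaute depends on the RNA's length, its first base and the Dicer that made it. AGO1 carries most microRNAs and the small RNAs that silence messenger RNA after transcription. AGO10 binds miR165 and miR166 and keeps them from AGO1, AGO7 works with miR390 on the transcript TAS3, and AGO2 is best known from antiviral defence. AGO4, AGO6 and AGO9 take the longer siRNAs made by DCL3 and guide DNA methylation in the nucleus.

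The table covered poly(A) RNA from the above-ground parts of untreated plants aged 20 days, grown for 6 days on MS medium and for 14 days in soil, and labelled as harvested at 15:00. It described 33 libraries, 3 for each of 11 genotypes. Both triple mutants carried alleles of the Dicer genes DCL4 and DCL2, as ein5-1 dcl4-2 dcl2-1 in the first case and ski2-2 dcl4-2 dcl2-1 in the other. The double mutants were ein5-1 dcl4-2, its dcl2-1 counterpart ein5-1 dcl2-1, and likewise ski2-2 dcl4-2 and, with the other Dicer, ski2-2 dcl2-1. The single mutants were dcl4-2, dcl2-1, ein5-1 and ski2-2, and Col-0 was the wild type. The labels name no transgene, and no agent was applied to any group. EIN5 is the cytoplasmic exoribonuclease that degrades decapped RNA, SKI2 is a helicase that feeds RNA into the exosome, and DCL4 and DCL2 are Dicers that compete for double-stranded RNA. The labels call the libraries of a genotype biological replicates, but the table gives 1 pooled FPKM per gene and genotype (read fragments per length of transcript and per size of library), so the values below have no SD and read depth is unknown. For 8 comparisons the authors' deposited table adds a log2 ratio, a p and a q, and the words rose, fell and called below need a q there of at most 0.05, a ratio of at least 2-fold and 1 FPKM or more in a compared genotype. For 10 further comparisons there was no test, and a difference of 1 in log2(FPKM + 1) is given as size alone.

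Transcripts of the mutated genes were read first. EIN5 (annotated as XRN4) lay between 6.88 and 11.2 FPKM where ein5-1 was present (4 genotypes), against 13.4 to 20.8 FPKM in the 7 without it. DCL2 lay between 1.23 and 2.35 FPKM where dcl2-1 was present (5 genotypes), against 4.89 to 9.02 FPKM in the 6 without it. DCL4 overlapped, with 2.98 to 4.89 FPKM where dcl4-2 was present (5 genotypes), against 3.15 to 6.91 FPKM in the 6 without it, so its level does not check that label. A value over the whole transcript also counts reads outside a lesion. The level of SKI2 was not read here, so the ski2-2 label was not checked. Marker genes of tissues and of clock state were then read, as transcript levels. The summed level of 3 leaf markers was 4522 FPKM in ein5-1 dcl4-2, 7285 FPKM in ski2-2 dcl4-2 and 24646 to 46043 FPKM in the other 9 genotypes, with Col-0 the highest. All 3 fell in both doubles over Col-0 in the authors' deposited table. The summed level of 4 root markers was 263 FPKM in ein5-1 dcl4-2, 753 FPKM in ski2-2 dcl4-2 and 14.9 to 73.4 FPKM in the other 9. PYK10 made up most of the sum in both doubles, at 254 and 673 FPKM against 38.8 FPKM in Col-0. IRT1, TIP2;3 and PER45 were at 1.09, 6.13 and 1.22 FPKM in ein5-1 dcl4-2. In ski2-2 dcl4-2 they were at 60.6, 8.33 and 10.5 FPKM, and in Col-0 at 0.253, 0.612 and 0.700 FPKM. Of 6 shoot meristem and boundary markers, WUS and CLV3 were both listed at 0 in 6 genotypes, those doubles among them, and the summed level ran from 8.65 FPKM in ein5-1 dcl4-2 to 18.8 FPKM in ski2-2. The 6 flower markers summed to 11.3 FPKM in ein5-1 dcl4-2, 5.06 FPKM in ski2-2 dcl4-2 and 5.57 to 26.0 FPKM in the other 9. Most of the sum in ein5-1 dcl4-2 was SEP3, at 7.95 FPKM against 5.46 FPKM in Col-0. AP1, at 0.0328 FPKM against 1.89 FPKM, and AP3, at 0.658 FPKM against 2.45 FPKM, were lower than in Col-0. PI and LFY were lower too, and AG was slightly higher. The clock gene CCA1, which peaks at dawn, lay between 3.32 and 9.34 FPKM in 4 genotypes with dcl2-1. It stood at 165 FPKM in ski2-2 dcl4-2 dcl2-1 and lay between 69.3 and 180 FPKM where DCL2 was intact. LHY split the same way, at 1.66 to 3.57 FPKM in those 4 and 47.3 to 232 FPKM in the others. PRR5 and ELF4, from the same list, grouped the genotypes otherwise. In those 4 they lay at 15.1 to 31.1 and 47.8 to 97.7 FPKM, against 0.391 and 3.77 FPKM in Col-0. In ein5-1 dcl4-2 and ski2-2 dcl4-2, PRR5 was at 11.9 and 12.7 FPKM and ELF4 at 81.6 and 47.4 FPKM. Fewer cells of a type and less RNA per cell cannot be told apart in such samples, and the part of tissue make-up and clock state in the Argonaute levels was not tested.

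A pair of microRNAs ties the family to its own pathway, and their sequences are shown because they mark which members they match. miR168 is known to direct cleavage of AGO1 mRNA, and miR403 that of AGO2 mRNA. The mature sequences below were read from the RefSeq TAIR10.1 genome (miR168a-5p on chromosome 4, 10578652 to 10578672, plus strand, and miR403-3p on chromosome 2, 19415154 to 19415174, plus strand), with the seed, bases 2 to 8, in capitals. The mature miR168b-5p has the same letters as miR168a-5p.
ath-miR168a-5p: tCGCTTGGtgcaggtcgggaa
ath-miR403-3p: tTAGATTCacgcacaaactcg

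Each member's longest annotated transcript was then searched for the best match to both microRNAs, and the 3 sites that matched best are shown 5′ to 3′, with the bases opposite the seed in capitals. The AGO1 site lies in coding sequence, in exon 2 of 22 on chromosome 1 (17891529 to 17891549, minus strand). The AGO2 site lies in the 3′ UTR, in exon 3 of 3 on chromosome 1 (11185223 to 11185243, plus strand). The AGO3 site lies in the 3′ UTR, in exon 4 of 4 on chromosome 1 (11192399 to 11192419, plus strand).
AGO1 site for miR168: ttcccgagctgcaTCAAGCTa
AGO2 site for miR403: ggagtttgtgcgtGAATCTAa
AGO3 site for miR403: gatgtttgtgcgtGAATCTAa

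The AGO1 site paired at 18 of 21 bases with miR168, with 2 mismatches and 1 G:U pair. The AGO2 site paired at 20 of 21 bases with miR403 and its mismatch stood at base 21, counted from the 5′ end of the microRNA. The AGO3 site paired at 18 of 21 bases with miR403 and its 3 mismatches stood at bases 19 to 21, so AGO2 and AGO3 hold the same letters opposite the seed. In the other 8 members the best match to miR403 had 5 to 7 mismatches. These are matches of letters, and cleavage was not measured here. The genes of miR168, miR403, miR390, miR165 and miR166 gave no readout, because all 8 on the list were listed at 0 FPKM in all 11 genotypes.

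AGO2 and AGO3 are also neighbours in the genome. AGO2 (AT1G31280) spans 11181504 to 11185396 and AGO3 (AT1G31290) 11188120 to 11192585, both on the plus strand of chromosome 1, with 2723 bases and no protein-coding gene between them. AGO8 (AT5G21030, 7139817 to 7144272, minus strand) and AGO9 (AT5G21150, 7192239 to 7198381, plus strand) lie on chromosome 5 with 12 protein-coding genes between them. No run of 50 bases was shared between the longest transcripts of any pair of members, and no annotated gene overlapped a member's locus.

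The levels divided the family into 5 expressed members and 5 near the floor. In Col-0, AGO1 was the highest at 47.7 FPKM, followed by AGO4 at 18.7 FPKM, AGO10 at 14.9 FPKM, AGO2 at 5.16 FPKM and AGO7 at 3.07 FPKM. FPKM is scaled by transcript length, so these levels can be compared between genes. AGO6 at 0.761 FPKM, AGO9 at 0.491 FPKM, AGO3 at 0.386 FPKM, AGO5 at 0.226 FPKM and AGO8 at 0.0280 FPKM were all under 1 FPKM in Col-0. The only value at or above 1 FPKM among these 5 genes was that of AGO3 in ein5-1 dcl4-2.

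**Figure D1:**
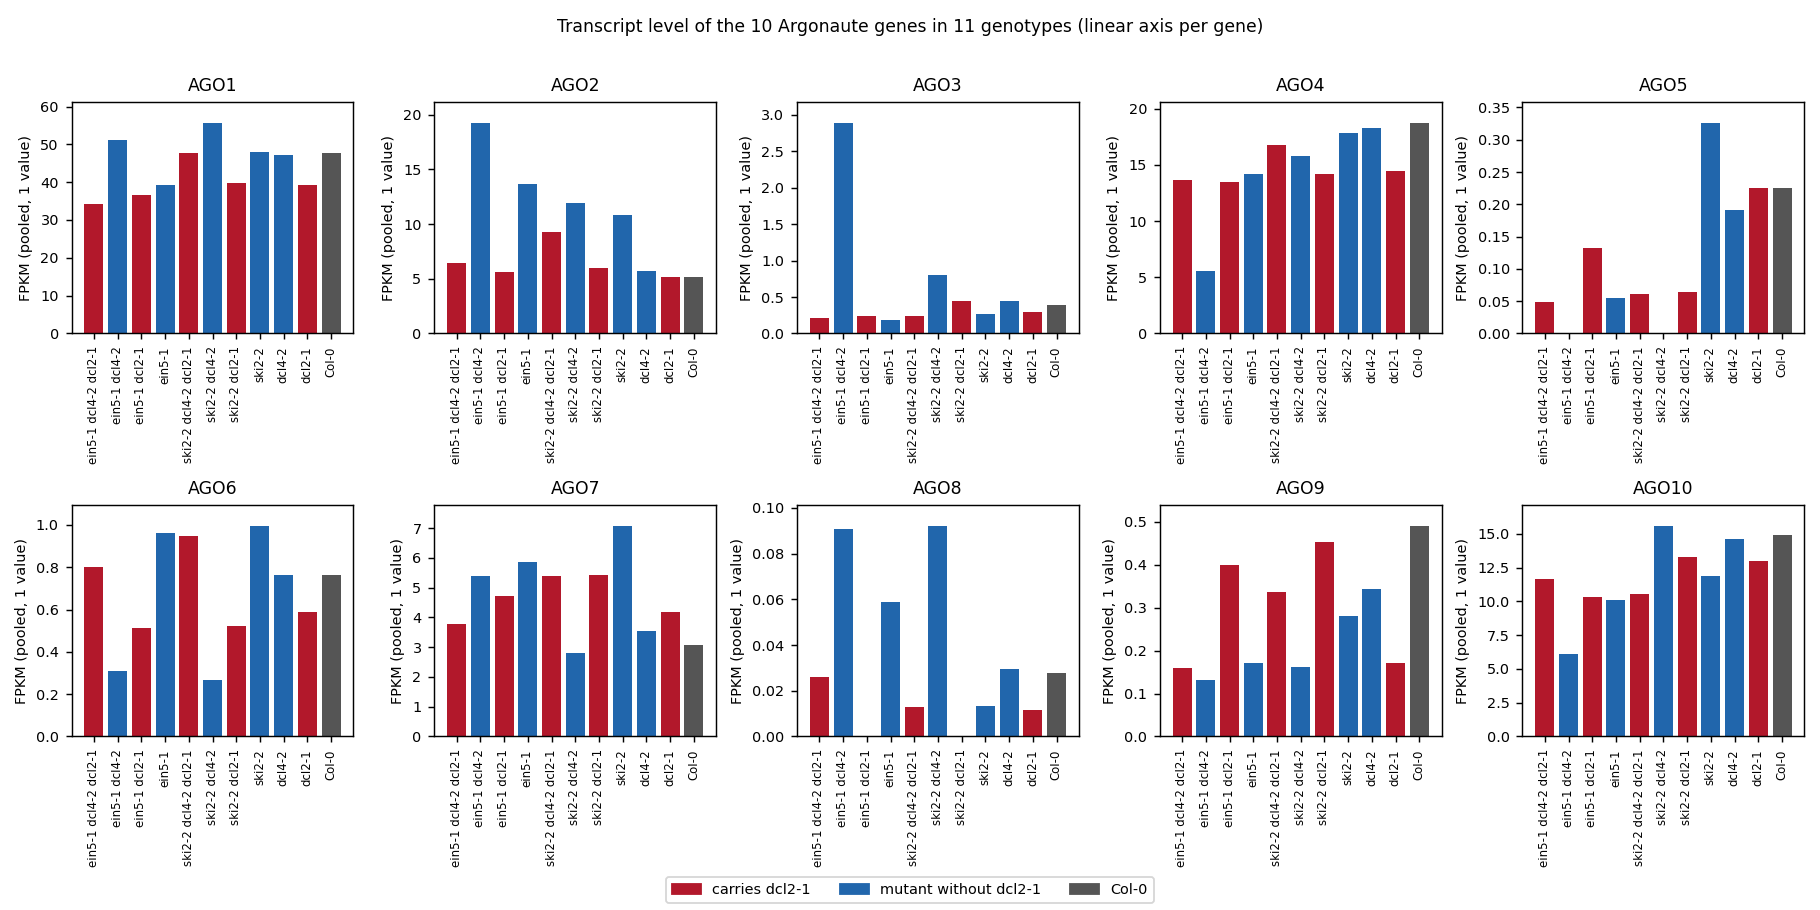
Bars give the pooled FPKM of each Argonaute gene (linear axis from 0, scaled per gene) in 11 genotypes, with Col-0 at the right of each panel and genotypes that carry dcl2-1 in red. AGO2 is highest in ein5-1 dcl4-2 at 19.3 FPKM, where AGO4 is lowest at 5.59 FPKM. No error bars are drawn because each bar is 1 pooled value.

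AGO1, the main microRNA effector, kept the narrowest range of the 5 expressed members. It was at 34.1 FPKM in ein5-1 dcl4-2 dcl2-1, 51.2 FPKM in ein5-1 dcl4-2, 36.5 FPKM in ein5-1 dcl2-1 and 39.3 FPKM in ein5-1. It was at 47.6 FPKM in ski2-2 dcl4-2 dcl2-1, 55.7 FPKM in ski2-2 dcl4-2, 39.9 FPKM in ski2-2 dcl2-1 and 48.1 FPKM in ski2-2. The remaining values were 47.3 FPKM in dcl4-2, 39.2 FPKM in dcl2-1 and 47.7 FPKM in Col-0. The 5 lowest values, 34.1 to 39.9 FPKM, belonged to ein5-1 and to the 4 dcl2-1 genotypes with low CCA1, and the other 6 lay at 47.3 to 55.7 FPKM.

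AGO1 (AT1G48410, chromosome 1, 17885633 to 17892632, minus strand) was called in none of the 8 tested comparisons, since no ratio reached 2-fold. In the authors' deposited table its log2 ratio was 0.10 in ein5-1 dcl4-2 over Col-0 (q = 0.410) and 0.24 in ski2-2 dcl4-2 over Col-0 (q = 0.0678). Its largest ratio there was the log2 of -0.59 on adding dcl2-1 to ein5-1 dcl4-2 (q = 0.000201). The same step from ski2-2 dcl4-2 was at -0.22 by that table (authors' deposited table, q = 0.0877). Whether those 2 steps differ was not tested.

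AGO2 was highest in the 4 genotypes that lacked an RNA decay factor and still had DCL2. It was at 6.48 FPKM in ein5-1 dcl4-2 dcl2-1, 19.3 FPKM in ein5-1 dcl4-2, 5.60 FPKM in ein5-1 dcl2-1 and 13.7 FPKM in ein5-1. It was at 9.28 FPKM in ski2-2 dcl4-2 dcl2-1, 11.9 FPKM in ski2-2 dcl4-2, 6.03 FPKM in ski2-2 dcl2-1 and 10.8 FPKM in ski2-2. The remaining values were 5.70 FPKM in dcl4-2, 5.14 FPKM in dcl2-1 and 5.16 FPKM in Col-0. The 4 genotypes with ein5-1 or ski2-2 and an intact DCL2 held 10.8 to 19.3 FPKM and the other 7 held 5.14 to 9.28 FPKM, so these groups did not overlap, and ski2-2 dcl4-2 dcl2-1 was the nearest below. That grouping was chosen after the values were seen and is given as a description. The share of all genes that separate in this way was not counted, so it is not shown to be particular to AGO2. FBW2, at 68.3 to 75.5 FPKM against 35.9 to 67.7 FPKM, and SUO, at 17.1 to 22.0 FPKM against 10.5 to 16.8 FPKM, did not overlap either. Both are on the list of Argonaute partners and turnover factors read below.

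The authors' test called AGO2 in 5 of 8 comparisons. In the authors' deposited table AGO2 was 3.74-fold higher in ein5-1 dcl4-2 than in Col-0 (log2 1.90, q = 0.000201) and 3.38-fold higher than in dcl4-2 (log2 1.76, q = 0.000201). Over ein5-1 itself the log2 ratio of ein5-1 dcl4-2 was 0.49 in the authors' deposited table (q = 0.000201), under the 2-fold limit. On adding dcl2-1 to ein5-1 dcl4-2, AGO2 fell by 1.57 on the log2 scale in the authors' deposited table (q = 0.000201).

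In the ski2-2 line the changes of AGO2 were smaller. The authors' deposited table gave log2 ratios of 1.22 for ski2-2 dcl4-2 over Col-0 and 1.08 over dcl4-2 (q = 0.000211 for both). Neither call held under quantile normalization, and the call over dcl4-2 was also lost on the log2(FPKM + 1) scale and under median-of-ratios scaling. The log2 ratio over ski2-2 was 0.14 in the authors' deposited table (q = 0.355). For dcl2-1 added to ski2-2 dcl4-2 the authors' deposited table gives a log2 ratio of -0.36 (q = 0.00718), under the 2-fold limit.

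The level of AGO2 was then read allele by allele, by size alone. Adding ein5-1 gave log2(FPKM + 1) differences of 1.26 in Col-0, 1.60 in dcl4-2 and 0.10 in dcl2-1. Adding ski2-2 gave differences of 0.94 in Col-0, 0.94 in dcl4-2 and 0.20 in dcl2-1. Adding dcl4-2 gave 0.12 in Col-0, 0.46 in ein5-1 and 0.13 in ski2-2. Adding dcl2-1 gave a difference of 0.00 in size in Col-0, -1.16 in ein5-1, -0.75 in ski2-2, -1.44 in ein5-1 dcl4-2 and -0.33 in ski2-2 dcl4-2. Steps of at least 1 upward were passed by 4% of all genes when ein5-1 was added to Col-0, by 19.4% when it was added to dcl4-2 and by 1.25% when it was added to dcl2-1. Steps of at least 1 downward were passed by 8.28% of all genes when dcl2-1 was added to ein5-1 and by 19.2% when it was added to ein5-1 dcl4-2. The 4 dcl2-1 genotypes with AGO2 at 5.14 to 6.48 FPKM were those with CCA1 at 3.32 to 9.34 FPKM, while ski2-2 dcl4-2 dcl2-1 had AGO2 at 9.28 FPKM and CCA1 at 165 FPKM. AGO2 was also low in dcl4-2 and Col-0, at 5.70 and 5.16 FPKM, with CCA1 at 85.5 and 102 FPKM. The clock genes PRR5 and ELF4 grouped the genotypes otherwise than CCA1, as given above.

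**Figure D2:**
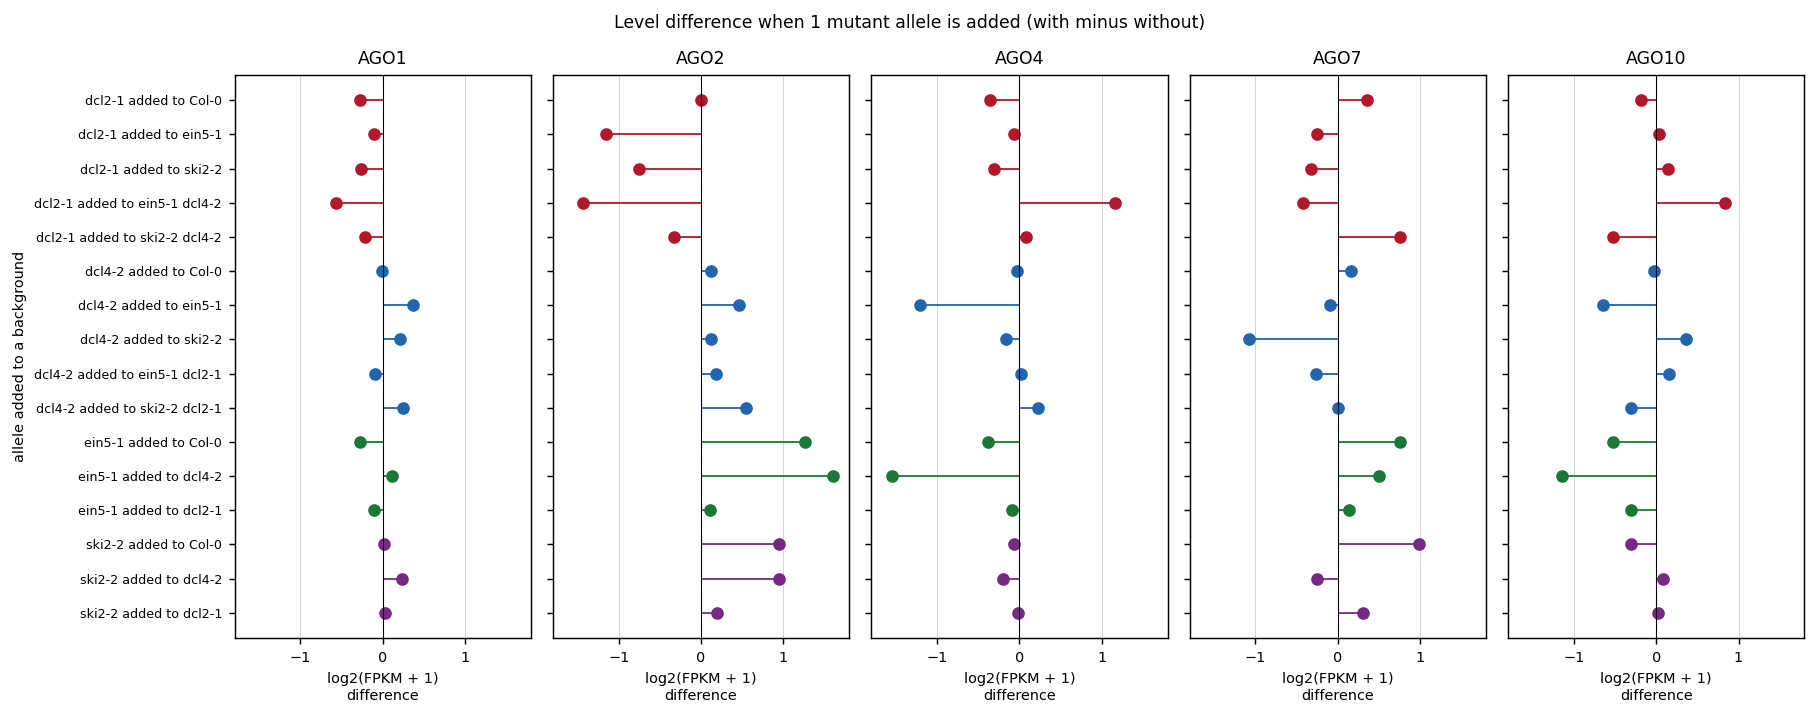
Points give the log2(FPKM + 1) difference of 5 Argonaute genes when 1 mutant allele is added to a background (genotype with the allele minus genotype without), for 16 steps coloured by allele. AGO2 is higher by 1.26 and 1.60 when ein5-1 is added to Col-0 and dcl4-2, and AGO4 is lower by over 1 only where ein5-1 and dcl4-2 meet with DCL2 intact.

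AGO3, the tandem neighbour of AGO2, was detected above 1 FPKM in a single genotype. It was at 2.89 FPKM in ein5-1 dcl4-2, at 0.797 FPKM in ski2-2 dcl4-2, at 0.452 FPKM in ski2-2 dcl2-1, at 0.448 FPKM in dcl4-2 and at 0.386 FPKM in Col-0. The other 6 genotypes held 0.185 to 0.289 FPKM, with ein5-1 the lowest. It passed the minimum only through ein5-1 dcl4-2, so a call there had to be upward for that genotype. In the authors' deposited table AGO3 was 7.47-fold higher in ein5-1 dcl4-2 than in Col-0, 15.6-fold higher than in ein5-1 and 6.44-fold higher than in dcl4-2 (q = 0.000201 for each). Adding dcl2-1 to ein5-1 dcl4-2 lowered it by 3.73 on the log2 scale in the authors' deposited table (q = 0.000201). In the 4 ski2-2 comparisons the authors' deposited table lists AGO3 with a p of exactly 1, a value that 41.4% to 42.1% of all genes carry in each comparison. In ein5-1, where AGO3 was at its lowest, AGO2 was at 13.7 FPKM.

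AGO4, the main Argonaute of RNA-directed DNA methylation, was low in 1 genotype. It was at 13.7 FPKM in ein5-1 dcl4-2 dcl2-1, 5.59 FPKM in ein5-1 dcl4-2, 13.5 FPKM in ein5-1 dcl2-1 and 14.2 FPKM in ein5-1. It was at 16.8 FPKM in ski2-2 dcl4-2 dcl2-1, 15.8 FPKM in ski2-2 dcl4-2, 14.2 FPKM in ski2-2 dcl2-1 and 17.8 FPKM in ski2-2. The remaining values were 18.3 FPKM in dcl4-2, 14.5 FPKM in dcl2-1 and 18.7 FPKM in Col-0. Apart from ein5-1 dcl4-2 the range was 13.5 to 18.7 FPKM. The 4 ein5-1 genotypes lay at or below the lowest of the other 7, but ein5-1 and ski2-2 dcl2-1 had the same value to 3 digits.

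In the authors' deposited table AGO4 (AT2G27040, chromosome 2, 11536502 to 11542391, minus strand) was 3.35-fold lower in ein5-1 dcl4-2 than in Col-0, 2.54-fold lower than in ein5-1 and 3.27-fold lower than in dcl4-2 (q = 0.000201 for each). With dcl2-1 added to ein5-1 dcl4-2 it was 2.45-fold higher in the authors' deposited table (q = 0.000201), at 13.7 FPKM against 5.59 FPKM. None of the 4 ski2-2 comparisons called it, with log2 ratios of -0.23 to 0.09 in the authors' deposited table (q of 0.0700 to 0.550). In log2(FPKM + 1), adding dcl4-2 gave a difference of -1.21 in ein5-1, against -0.16 in ski2-2, 0.02 in ein5-1 dcl2-1 and -0.03 in Col-0. Summed leaf markers were at their lowest in the same genotype, ein5-1 dcl4-2, and second lowest in ski2-2 dcl4-2, where AGO4 was at 15.8 FPKM.

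AGO10, the relative of AGO1 known from shoot meristem upkeep, was lowest in the same genotype as AGO4. It was at 11.6 FPKM in ein5-1 dcl4-2 dcl2-1, 6.08 FPKM in ein5-1 dcl4-2, 10.4 FPKM in ein5-1 dcl2-1 and 10.1 FPKM in ein5-1. It was at 10.5 FPKM in ski2-2 dcl4-2 dcl2-1, 15.6 FPKM in ski2-2 dcl4-2, 13.3 FPKM in ski2-2 dcl2-1 and 11.9 FPKM in ski2-2. The remaining values were 14.7 FPKM in dcl4-2, 13.0 FPKM in dcl2-1 and 14.9 FPKM in Col-0. Its level overlapped between genotypes with and without each of the 4 alleles.

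The authors' deposited table has AGO10 (AT5G43810, chromosome 5, 17610744 to 17616907, plus strand) 2.46-fold lower in ein5-1 dcl4-2 than in Col-0 and 2.41-fold lower than in dcl4-2 (q = 0.000201 for both). Against ein5-1 the log2 ratio was -0.73, and adding dcl2-1 to ein5-1 dcl4-2 gave 0.94, both under the 2-fold limit in the authors' deposited table (q = 0.000201 for both). In ski2-2 dcl4-2 the log2 ratio over Col-0 was 0.07 in the authors' deposited table (q = 0.617). The meristem gene STM, active where AGO10 is known to act, was at 3.51 FPKM in ein5-1 dcl4-2, 2.68 FPKM in ski2-2 dcl4-2 and 6.81 FPKM in Col-0. The 2 lowest STM values thus fell in the genotypes with the lowest and the highest AGO10. KNAT1, from the same marker list, differed from STM, at 3.35 FPKM in ein5-1 dcl4-2, 8.89 FPKM in ski2-2 dcl4-2 and 3.28 FPKM in Col-0. Its highest value was that in ski2-2 dcl4-2. Over all 11 genotypes the log2(FPKM + 1) levels of AGO4 and AGO10 had a Pearson r of 0.861, those of AGO3 and AGO4 one of -0.833 and those of AGO2 and AGO8 one of 0.760. These were the strongest 3 of 45 pairs, given as descriptions of points that share their libraries. AGO8 ran from 0 to 0.0921 FPKM, so its r rests on values near the floor. AGO3 passed 1 FPKM only in ein5-1 dcl4-2. Without ein5-1 dcl4-2, a choice made after seeing the data, r was 0.50 for AGO4 with AGO10, 0.28 for AGO3 with AGO4, a reversed sign, and 0.62 for AGO2 with AGO8.

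AGO7, which loads miR390 to start tasiRNA production from TAS3, was called in 1 comparison. It was at 3.76 FPKM in ein5-1 dcl4-2 dcl2-1, 5.40 FPKM in ein5-1 dcl4-2, 4.73 FPKM in ein5-1 dcl2-1 and 5.85 FPKM in ein5-1. It was at 5.41 FPKM in ski2-2 dcl4-2 dcl2-1, 2.81 FPKM in ski2-2 dcl4-2, 5.42 FPKM in ski2-2 dcl2-1 and 7.08 FPKM in ski2-2. The remaining values were 3.54 FPKM in dcl4-2, 4.20 FPKM in dcl2-1 and 3.07 FPKM in Col-0. Of all 11 genotypes only ski2-2 dcl4-2 was below Col-0.

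In the authors' deposited table AGO7 (AT1G69440, chromosome 1, 26101407 to 26105328, minus strand) was 2.52-fold lower in ski2-2 dcl4-2 than in ski2-2 (q = 0.000211). For dcl2-1 added to ski2-2 dcl4-2 the authors' deposited table gives a log2 ratio of 0.94 (q = 0.000211), and for dcl2-1 added to ein5-1 dcl4-2 one of -0.52 (q = 0.00153). Both singles of the decay factors were higher than Col-0 by size, by 0.75 for ein5-1 and 0.99 for ski2-2 in log2(FPKM + 1), just under the limit of 1. TAS3, its best-known partner transcript, was at 8.95 FPKM in ski2-2 dcl4-2, 47.6 FPKM in ski2-2 and 40.7 FPKM in Col-0, and it fell in ski2-2 dcl4-2 over both in the authors' deposited table (q = 0.000211).

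AGO6, AGO9, AGO5 and AGO8 stayed under 1 FPKM throughout. AGO6, which acts beside AGO4, was at 0.312 FPKM in ein5-1 dcl4-2 and 0.267 FPKM in ski2-2 dcl4-2, against 0.514 to 0.995 FPKM in the other 9 genotypes. Those 2 doubles were thus the lowest for AGO6. In the authors' deposited table its log2 ratio was -1.63 in ein5-1 dcl4-2 over ein5-1 (q = 0.00214) and -1.90 in ski2-2 dcl4-2 over ski2-2 (q = 0.00192), and these are not counted as falls because no compared genotype reached 1 FPKM. Its other 6 comparisons carry a p of exactly 1 in the authors' deposited table.

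The other 3 lowly expressed genes had a p of exactly 1 in all 8 comparisons of the authors' deposited table. AGO9, known from ovules, ran from 0.131 FPKM in ein5-1 dcl4-2 to 0.491 FPKM in Col-0. AGO5, known from reproductive tissue, was listed at 0 in ein5-1 dcl4-2 and ski2-2 dcl4-2 and reached 0.326 FPKM in ski2-2. AGO8, often taken for a pseudogene, was listed at 0 in ein5-1 dcl2-1 and ski2-2 dcl2-1 and reached 0.0921 FPKM in ski2-2 dcl4-2. Depth is unknown, so a listed 0 cannot be given an upper limit.

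Counted by comparison, 0 to 4 of the 10 members were called. In ein5-1 dcl4-2 over Col-0, 4 of 10 members were called by the authors' deposited table, AGO2 and AGO3 higher and AGO4 and AGO10 lower, beside 36.7% of the 19493 genes that reached 1 FPKM (20.4% higher and 16.3% lower). That background counts only genes at 1 FPKM or more, a minimum that 6 members reached, AGO3 among them only through ein5-1 dcl4-2. The median log2(FPKM + 1) difference of the 10 members was -0.10, against 0.13 over all genes. The same 4 members were called over dcl4-2 (35.4% of all genes), and AGO3 and AGO4 over ein5-1 (30.7%), in the authors' deposited table. With dcl2-1 added to ein5-1 dcl4-2, AGO4 rose and AGO2 and AGO3 fell in the authors' deposited table, beside 35.6% of all genes called.

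In the ski2-2 line, AGO2 was the member called for ski2-2 dcl4-2 over Col-0 (28.9% of all genes) and over dcl4-2 (27.8%), and AGO7 over ski2-2 (27.6%), in the authors' deposited table. Adding dcl2-1 to ski2-2 dcl4-2 called 0 of 10 members by the Cuffdiff test of the authors' deposited table, beside 28% of all genes. There, 3 members had a q of at most 0.05 with a ratio under 2-fold, beside 60.4% of all genes at that q whatever the ratio, and no other test could be run on pooled values. The comparisons above share genotypes, so their counts are not independent.

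By size alone, AGO2 was the single member past a difference of 1 in ein5-1 over Col-0 (1.26), beside 7.43% of all genes. Between the doubles, ein5-1 dcl4-2 over ski2-2 dcl4-2, AGO3 was higher by 1.11 while AGO4 (-1.35) and AGO10 (-1.23) were lower, beside 19.9% of all genes. No member passed that size in dcl4-2 (1.51% of all genes), dcl2-1 (9.26%), ski2-2 (5.56%), ein5-1 dcl2-1 (10.5%), ski2-2 dcl2-1 (9.04%), ein5-1 dcl4-2 dcl2-1 (8.25%) or ski2-2 dcl4-2 dcl2-1 (5.48%) over Col-0. Nor did any member between the triples, ein5-1 dcl4-2 dcl2-1 over ski2-2 dcl4-2 dcl2-1, beside 13.2% of all genes.

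**Figure D3:**
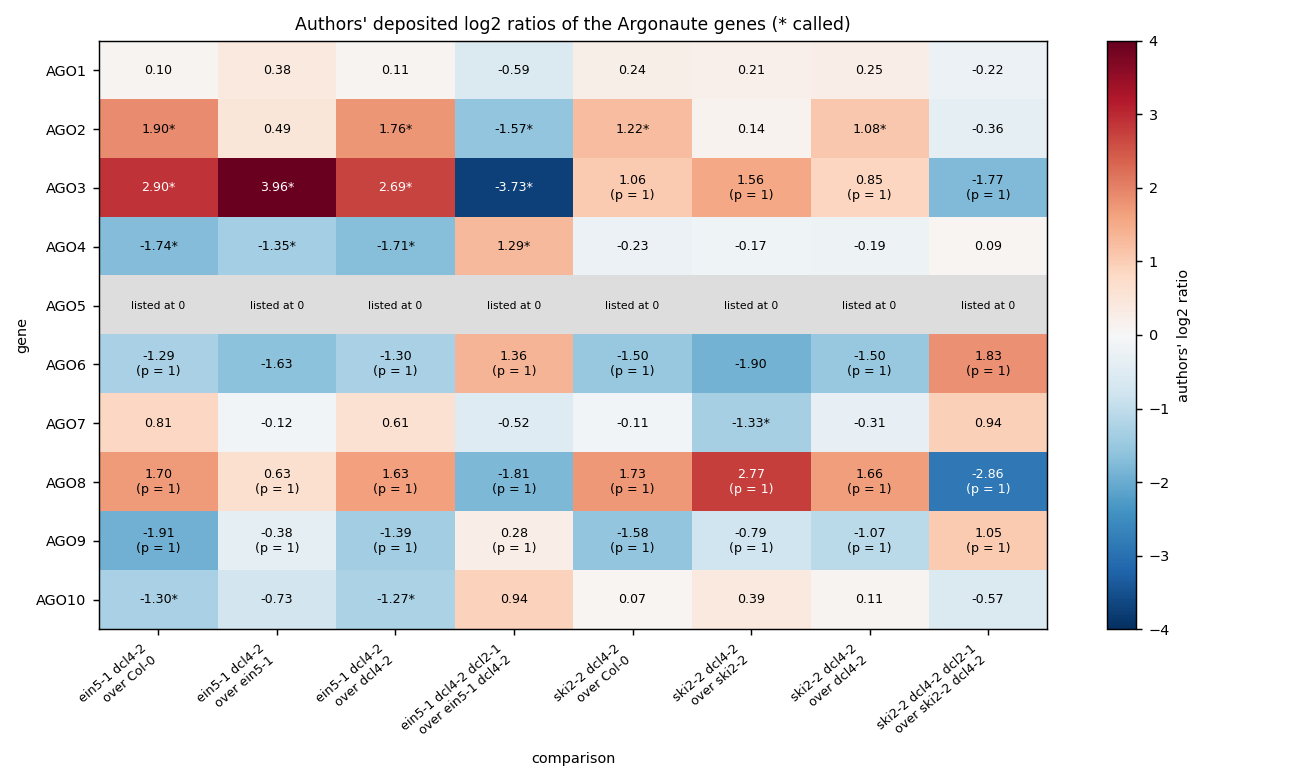
Cells give the log2 ratio of the authors' deposited table for 10 Argonaute genes (rows) in 8 comparisons (columns, first genotype over second), on a colour scale from -4 to 4. Asterisks mark called genes, and "p = 1" marks cells where the table gives a p of exactly 1. AGO3 reaches 3.96 and -3.73, and AGO1 stays between -0.59 and 0.38.

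The summed level of the family depended on the scaling. The 10 genes summed to 91.0 FPKM in ein5-1 dcl4-2, 103 FPKM in ski2-2 dcl4-2 and 91.5 FPKM in Col-0, and the lowest sum was 71.0 FPKM in ein5-1 dcl4-2 dcl2-1. The FPKM of all genes did not sum to the same total, and per 1000000 FPKM of that total the family stood at 94.5 in ein5-1 dcl4-2, 137 in ski2-2 dcl4-2 and 73.6 in Col-0, with 53.2 in ein5-1 dcl2-1 the lowest. Shares within the family do not depend on that total. AGO1 made up 56.3% of the sum in ein5-1 dcl4-2, 54.0% in ski2-2 dcl4-2 and 52.1% in Col-0. AGO2 made up 21.2% in ein5-1 dcl4-2, 11.5% in ski2-2 dcl4-2 and 5.63% in Col-0. AGO4 made up 6.15% in ein5-1 dcl4-2, 15.3% in ski2-2 dcl4-2 and 20.5% in Col-0. Ranked by level, AGO2 was therefore next after AGO1 in ein5-1 dcl4-2, ahead of AGO10 at 6.08 FPKM and AGO4 at 5.59 FPKM, while it came after AGO1, AGO4 and AGO10 in ski2-2 dcl4-2 and in Col-0. As a ratio between genes, AGO2 was at 37.6% of AGO1 in ein5-1 dcl4-2, 34.9% in ein5-1, 21.4% in ski2-2 dcl4-2 and 10.8% in Col-0. These are shares of transcript level, and protein was not measured in these files.

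**Figure D4:**
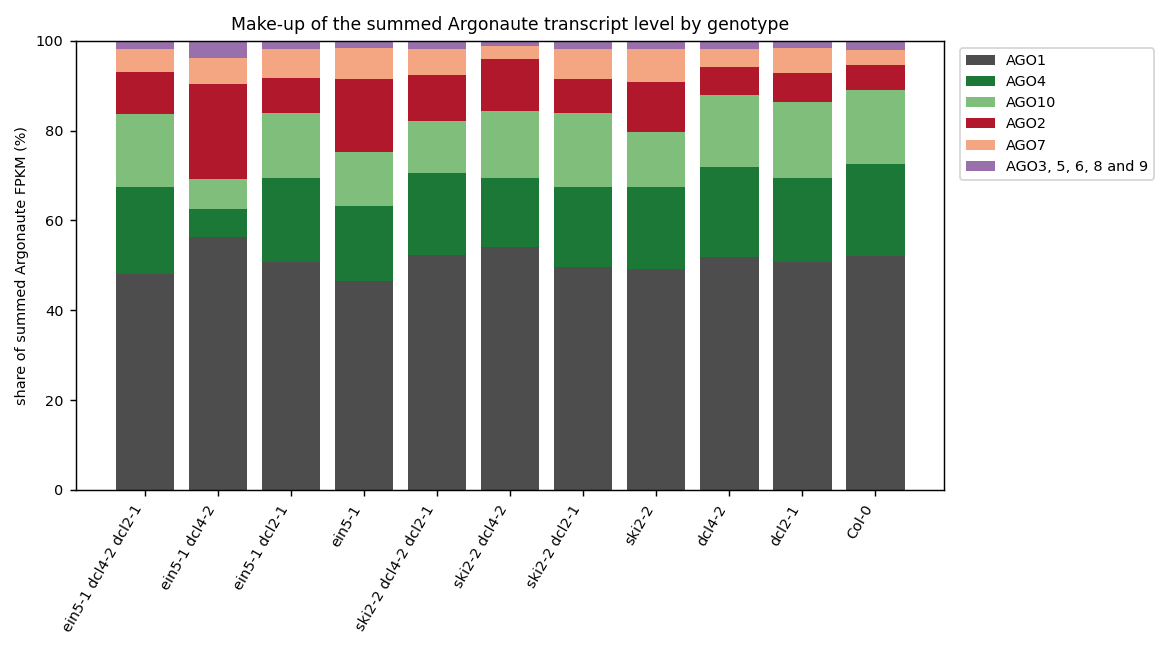
Stacked bars give the share (%) of each Argonaute gene in the summed Argonaute FPKM of 11 genotypes, with Col-0 at the right. AGO2 takes 21.2% in ein5-1 dcl4-2 against 5.63% in Col-0, and AGO4 takes 6.15% against 20.5%.

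Genes that work with AGO4 and AGO6 were read beside them. Of 9 effectors of RNA-directed DNA methylation, 0 rose and 3 fell in ein5-1 dcl4-2 over Col-0 in the authors' deposited table, with a median log2(FPKM + 1) difference of -0.41 against 0.13 over all genes. Over all genes 20.4% were called higher and 16.3% lower there, 36.7% in all. The number called in the list is near the share called either way, but all 3 fell, against 16.3% of all genes called lower. The list holds 9 genes, and whether its direction differs from that of all genes was not tested. The 3 were DMS3 at 2.57 FPKM against 5.97 FPKM, DRD1 at 1.69 FPKM against 3.40 FPKM and IDN2 at 7.68 FPKM against 18.4 FPKM. DMS3 and DRD1 belong to a complex that helps RNA polymerase V, and IDN2 binds double-stranded RNA in the same route. None of the 9 was called in ski2-2 dcl4-2 over Col-0 in the authors' deposited table, beside 28.9% of all genes. The median difference there was -0.06 against 0.06 over all genes. Whether the doubles differ in this was not tested. NRPE1, the largest subunit of polymerase V, whose tail binds AGO4, was at 0.669 FPKM in ein5-1 dcl4-2, 2.05 FPKM in ski2-2 dcl4-2 and 2.57 FPKM in Col-0. It fell in the first of these over Col-0 in the authors' deposited table (log2 -1.94, q = 0.000201). With dcl2-1 added to ein5-1 dcl4-2, NRPE1 and DMS3 rose with AGO4 in the authors' deposited table, beside 35.6% of all genes called. DRD1 and IDN2, at 2.73 and 14.8 FPKM against 1.69 and 7.68 FPKM, did not pass.

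Among 14 genes that make small RNAs, 0 rose and 3 fell in ein5-1 dcl4-2 over Col-0 in the authors' deposited table, near the 16.3% of all genes called lower and below the 36.7% called either way. DCL3, which makes the siRNAs that AGO4 carries, was at 0.752 FPKM against 2.33 FPKM. NRPD1, the largest subunit of polymerase IV upstream of DCL3, was at 0.573 FPKM against 3.36 FPKM. RDR6, the polymerase that makes double-stranded RNA from transcripts, was at 3.49 FPKM against 8.07 FPKM. In ski2-2 dcl4-2 over Col-0, NRPD1 alone of the 14 was called, beside 28.9% of all genes. NRPD1 was at 0.823 FPKM against 3.36 FPKM (authors' deposited table, log2 -2.02, q = 0.000211), and DCL3 was at 3.06 FPKM against 2.33 FPKM. Leaf markers were at their lowest in ein5-1 dcl4-2, and the part of tissue make-up was not tested.

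**Figure D5:**
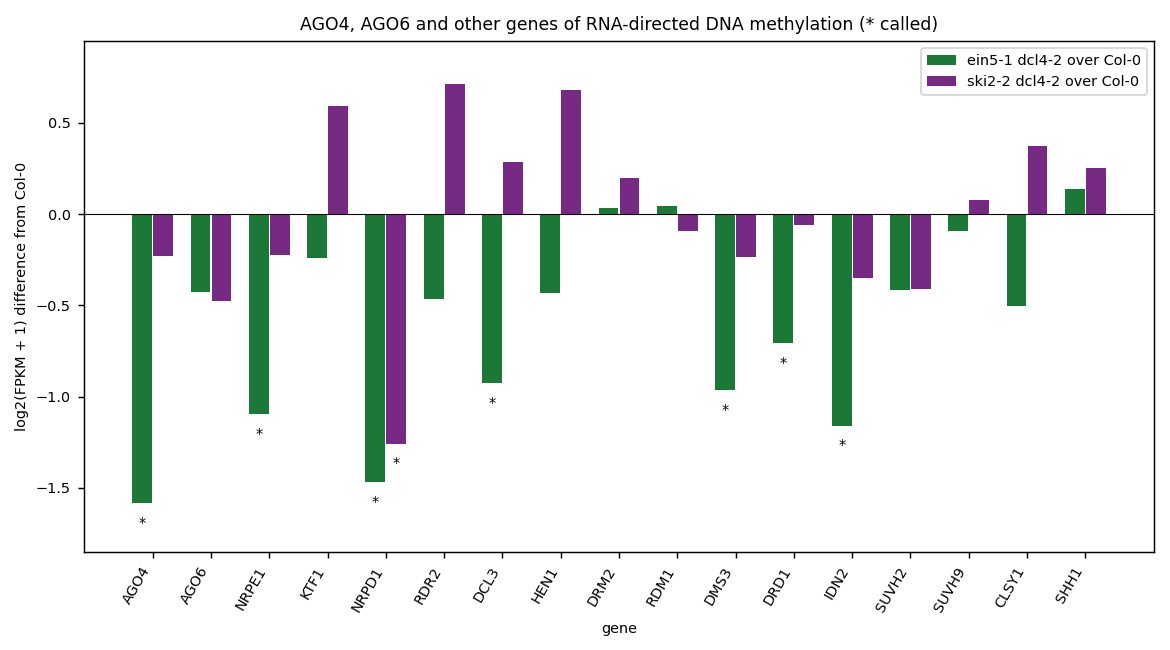
Bars give the log2(FPKM + 1) difference from Col-0 in ein5-1 dcl4-2 (green) and ski2-2 dcl4-2 (purple) for AGO4, AGO6 and 15 other genes of RNA-directed DNA methylation, and asterisks mark genes called by the authors' test. AGO4 differs by -1.58 in ein5-1 dcl4-2 and by -0.23 in ski2-2 dcl4-2. In the first 7 genes are called and in the second NRPD1 alone, beside 36.7% and 28.9% of all genes.

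Of 11 genes for partners and turnover factors of Argonaute proteins, 2 rose and 1, NRPE1, fell in ein5-1 dcl4-2 over Col-0 in the authors' deposited table, fewer than the 36.7% of all genes called. HSP90.1, a stress-inducible copy of the chaperone that helps load Argonautes, was at 177 FPKM in ein5-1 dcl4-2 against 5.62 FPKM in Col-0. HSP90.2, a constitutive copy, was at 331 FPKM against 110 FPKM. HSP90.1 alone of the 11 rose in ski2-2 dcl4-2 over Col-0 in the authors' deposited table, at 33.8 FPKM against 5.62 FPKM. In that comparison 28.9% of all genes were called. Over the series HSP90.1 lay between 33.8 and 177 FPKM in the 5 genotypes where AGO2 was at 9.28 FPKM or more, and between 3.61 and 6.47 FPKM in the 6 where AGO2 was at 6.48 FPKM or less. That cut was drawn after the values were seen and puts ski2-2 dcl4-2 dcl2-1 in the higher group. By ein5-1 or ski2-2 with DCL2 intact, as for AGO2 above, HSP90.1 overlapped, at 33.8 to 177 FPKM against 3.61 to 38.5 FPKM. The share of all genes that split in either way was not counted. FBW2, an F-box protein that targets AGO1 for breakdown, was at 68.3 FPKM in ein5-1 dcl4-2, 75.2 FPKM in ski2-2 dcl4-2 and 50.2 FPKM in Col-0 and was not called. SQN, a cyclophilin that promotes AGO1 activity, was at 12.1 FPKM in ein5-1 dcl4-2, 10.1 FPKM in ski2-2 dcl4-2 and 7.93 FPKM in Col-0 and was not called.

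Targets downstream of AGO10 and AGO7 were read in the same way. Of 5 HD-ZIP III genes, whose mRNAs are cut by miR165 and miR166, PHB alone was called in ein5-1 dcl4-2 over Col-0 in the authors' deposited table, at 9.18 FPKM against 21.5 FPKM, and none was called in ski2-2 dcl4-2 over Col-0, beside 36.7% and 28.9% of all genes. PHB was as low in dcl2-1, at 8.87 FPKM, where AGO10 was at 13.0 FPKM. Of TAS3 and 3 auxin response factor genes silenced by its tasiRNAs, ARF4 rose in ein5-1 dcl4-2 over Col-0 in the authors' deposited table, at 30.5 FPKM against 12.0 FPKM. In ski2-2 dcl4-2 over Col-0, ARF3 and ARF4 rose and TAS3 fell in the authors' deposited table. Of all genes, 36.7% were called in ein5-1 dcl4-2 and 28.9% in ski2-2 dcl4-2 over Col-0. In dcl4-2, where AGO7 was at 3.54 FPKM, ARF4 was at 31.5 FPKM, ARF3 at 25.6 FPKM and ARF2 at 109 FPKM. ARF3 and ARF2 were at 14.0 and 95.0 FPKM in ein5-1 dcl4-2, and at 13.0 and 99.0 FPKM in Col-0. DCL4 is known to make tasiRNAs, and its part in these levels was not tested. On adding dcl2-1 to ski2-2 dcl4-2, TAS3 rose in the authors' deposited table, at 77.1 FPKM against 8.95 FPKM, beside AGO7 at 5.41 FPKM against 2.81 FPKM.

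Genes with patterns most like each expressed member were found by Pearson correlation of log2(FPKM + 1) over the 11 genotypes among 16684 genes that reached 5 FPKM, as a description. AGO2 was nearest to HSFA2, a heat stress transcription factor (r = 0.983, 0.662 to 40.6 FPKM), then AT5G23340 (r = 0.980) and HAB2, a phosphatase of abscisic acid signalling (r = 0.978). AGO4 was nearest to PXY, a receptor kinase of vascular stem cells (r = 0.977), then GIL1 (r = 0.966) and AT1G30600 (r = 0.958). AGO10 was nearest to AT1G72090 (r = 0.966), PKP-BETA1, a plastid pyruvate kinase (r = 0.954), and OSB3 (r = 0.936). AGO1 was nearest to GA3OX1, an enzyme of gibberellin synthesis (r = 0.949), NF-YA2 (r = 0.934) and SIS3 (r = 0.923), and AGO7 to AT5G01610 (r = 0.944), EMB1075 (r = 0.929) and AHP5 (r = 0.914).

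Promoters of AGO2, AGO4 and AGO10 are shown because these members moved apart and together in ein5-1 dcl4-2. Each is the 250 bases before the annotated start in the RefSeq TAIR10.1 genome, written 5′ to 3′ on the gene's strand, with matches to searched motifs in capitals. The windows are chr1:11181254-11181503 (plus strand) for AGO2, chr2:11542392-11542641 (minus strand) for AGO4 and chr5:17610494-17610743 (plus strand) for AGO10.
AGO2 promoter: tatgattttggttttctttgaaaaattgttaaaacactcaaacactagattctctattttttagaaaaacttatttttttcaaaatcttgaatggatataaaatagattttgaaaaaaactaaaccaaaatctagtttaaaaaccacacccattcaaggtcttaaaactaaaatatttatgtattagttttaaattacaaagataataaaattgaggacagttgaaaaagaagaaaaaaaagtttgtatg
AGO4 promoter: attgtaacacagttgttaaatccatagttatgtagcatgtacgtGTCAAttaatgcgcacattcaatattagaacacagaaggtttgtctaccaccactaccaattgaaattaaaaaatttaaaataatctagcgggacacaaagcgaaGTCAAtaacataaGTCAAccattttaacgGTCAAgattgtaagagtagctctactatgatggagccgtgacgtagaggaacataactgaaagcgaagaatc
AGO10 promoter: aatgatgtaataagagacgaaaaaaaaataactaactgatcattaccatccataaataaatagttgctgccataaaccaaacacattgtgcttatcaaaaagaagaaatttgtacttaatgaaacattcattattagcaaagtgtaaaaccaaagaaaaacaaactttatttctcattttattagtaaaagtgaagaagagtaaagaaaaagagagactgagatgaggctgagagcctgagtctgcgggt

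The motifs searched on both strands were the W-box core TTGAC, the heat shock element core GAANNTTC, the G-box CACGTG and the evening element AAAATATCT, whose letters do not overlap as searched. AGO4 held 4 W-box cores, all as the reverse complement, with the nearest 72 bases before the start, and none of the other motifs. AGO2 and AGO10 held none of the 4 motifs in these windows. Among 27443 promoters of the same length, 44.9% held the W-box core, 9.55% the heat shock element core, 6.49% the G-box and 2.36% the evening element. Of the 10 members, AGO5 held 2 W-box cores and AGO8 1, so 3 members held at least 1, and AGO1 and AGO6 held 1 heat shock element core each. A match is a run of letters and not a measured site, and no match says only that these letters are not in this window.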

How the data were processed

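TopHat2 2.1.1, Cuffdiff (version not given in the sources used here) and the TAIR10 build are named in the submitters' processing notes. The authors deposited FPKM values, 1 per gene and genotype, which merge the 3 libraries. The deposited table also holds the authors' log2 ratio, p-value and q-value for 8 comparisons. For genes above 1 FPKM in both genotypes these log2 ratios equal those of the listed FPKM to rounding, except for ski2-2 dcl4-2 over Col-0 and over dcl4-2, where they differ by a median of 0.0132 (-0.161 to 0.0371) and 0.0163 (-0.184 to 0.0590).

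The smallest q, 0.000201 or 0.000211, is shared by 7169 to 9235 genes and does not rank them. Because library values are not in this table, no test of differences could be run here, and how the spread between libraries entered the authors' test cannot be checked. FPKM depends on what else is in a library, and FPKM sums ran from 753957 to 1352350. Whether reads were counted by strand is not stated.

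Members and gene lists were chosen with earlier results of these data known. All 10 members are named, with, per list, the called genes or up to 4 largest differences, and for members at 5 FPKM or more the 3 nearest patterns. A pseudocount of 1 was used for log2(FPKM + 1), which understates changes of low genes. Settings were varied 1 at a time. The pseudocount was set to 0.1, the FPKM minimum to 5 or dropped, the minimum ratio dropped, the authors' ratio replaced by the log2(FPKM + 1) difference, and the values rescaled by quantiles or by median-of-ratios. Scaling alternatives kept the authors' q. Sequences and loci came from RefSeq TAIR10.1, whose names matched 32810 of 33557 identifiers and gave a symbol for 9 of 10 members, AGO8 being named from the family list. The table holds no coordinates. Tools were numpy 2.4.6, matplotlib 3.10.9 and pandas 2.3.3 under Python 3.11.15. The calling rule was run on simulated data whose q values were set in advance. That run checks the code and not the reliability of the calls.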

Additional observations from a re-analysis of the deposited data

Results flagged for a closer look

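Some members moved in opposite directions on loss of the same Dicer in the ein5-1 and the ski2-2 line, each with a q of at most 0.05 in the authors' deposited table. The difference between the lines was not tested. On loss of DCL4, AGO10 had a log2 ratio of -0.73 in ein5-1 dcl4-2 over ein5-1 and of 0.39 in ski2-2 dcl4-2 over ski2-2, in the authors' deposited table. On loss of DCL2, AGO7 had a log2 ratio of -0.52 in ein5-1 dcl4-2 dcl2-1 over ein5-1 dcl4-2 and of 0.94 in ski2-2 dcl4-2 dcl2-1 over ski2-2 dcl4-2, in the authors' deposited table. For the same steps AGO10 had 0.94 and -0.57 in the authors' deposited table. All 6 ratios were under 2-fold. Opposite signs at that q were shared by 13.6% of 8274 genes for the DCL4 step and by 26.8% of 8482 genes for the DCL2 step.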

How the results depend on the processing

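The count of called members moved by over 1.5 times under these alternatives, and smaller moves follow them. With no minimum ratio it was 5 against 2 in ein5-1 dcl4-2 over ein5-1, 6 against 3 in ein5-1 dcl4-2 dcl2-1 over ein5-1 dcl4-2, 3 against 0 in ski2-2 dcl4-2 dcl2-1 over ski2-2 dcl4-2, and 2 against 1 in ski2-2 dcl4-2 over ski2-2 and over dcl4-2. With quantile normalization it was 0 against 1 in ski2-2 dcl4-2 over Col-0 and over dcl4-2, where AGO2 was lost, and 1 against 0 in ski2-2 dcl4-2 dcl2-1 over ski2-2 dcl4-2, where AGO7 entered. Median-of-ratios scaling and the log2(FPKM + 1) difference each gave 0 against 1 in ski2-2 dcl4-2 over dcl4-2. An FPKM minimum of 5 gave 1 against 2 in ein5-1 dcl4-2 over ein5-1, without AGO3, and no FPKM minimum gave 2 against 1 in ski2-2 dcl4-2 over ski2-2, with AGO6. A pseudocount of 0.1 gave 2 against 0 in ski2-2 over Col-0, with AGO2 and AGO7. By 1.5 times or less, no minimum ratio gave 5 against 4 in ein5-1 dcl4-2 over Col-0 and over dcl4-2, with AGO7, and no FPKM minimum gave 3 against 2 in ein5-1 dcl4-2 over ein5-1, with AGO6. An FPKM minimum of 5 removed every AGO3 call, which also gave 3 against 4 in ein5-1 dcl4-2 over Col-0 and over dcl4-2, 2 against 3 in ein5-1 dcl4-2 dcl2-1 over ein5-1 dcl4-2 and, by size, 2 against 3 in ein5-1 dcl4-2 over ski2-2 dcl4-2. Without ein5-1 dcl4-2, a setting chosen after seeing the data, Pearson r was 0.28 against -0.83 for AGO3 with AGO4. The cause was not tested beyond what each setting changes. Of 180 member differences, 20 changed sign under quantile normalization, none over 0.31 in size, and 2 under median-of-ratios scaling. Quantile normalization moved the median of all genes in ein5-1 dcl4-2 over Col-0 to -0.08, against 0.13 as listed. No paired analysis was possible because the table holds pooled values, and leaving out each replicate could not be run for the same reason. Depth is unknown, so no limit can be set on values near 0.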
